A study of Macaca mulatta with 12 samples.

Results

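The genes described here encode the protein subunits of the cytosolic ribosome and of the mitochondrial ribosome. They were chosen by symbol alone, as rows of the count table whose symbol begins with RPL or RPS (cytosolic) or with MRPL or MRPS (mitochondrial) followed by a number, A for RPSA, or P and a number for the stalk proteins. In all 113 of the 32386 rows were taken, 66 cytosolic and 47 mitochondrial. A further 16 rows that fit the letters were set aside: 10 kinases named RPS6K, the L-type paralogs RPL22L1, RPL36AL, RPL3L, RPL7L1 and RPS27L, and RPS19BP1, which binds a subunit and is not one.

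Cytosolic ribosomes make nearly all proteins of a cell, and their subunits are encoded in the nucleus together with a set of translation factors. Most of these transcripts begin with a pyrimidine-rich tract through which nutrient and growth signals, acting by mTORC1, set how strongly they are translated. Mitochondrial ribosomes make only the few respiratory chain proteins that mitochondrial DNA encodes; their protein subunits also come from nuclear genes, are made in the cytosol and are imported. Macrophages stimulated with lipopolysaccharide (LPS) and interferon-gamma are known to shift from respiration towards glycolysis, and RPL13A is known in human monocytic cells as a subunit that leaves the ribosome after interferon-gamma and silences the translation of some inflammatory transcripts.

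RNA was sequenced from CD14+CD16-CD163+ macrophages sorted from rhesus macaque blood, 4.5 months (Early) or 19 months (Late) after transplant of the animals' own CD34+ cells treated with CRISPR/Cas9, in a study of TET2-mutant clonal hematopoiesis. Wells of 250000 cells stood for 8 h without stimulation (CTL) or with LPS at 100 ng/ml and interferon-gamma at 20 ng/ml (ACT). The protocol names both agents, and the treatment label of the samples names LPS. Early CTL, Early ACT, Late CTL and Late ACT have 3 libraries each. All 4 groups carry the edited graft, so no group without it enters a comparison, and blood after such a graft can hold edited and unedited cells side by side. The labels do not say whether the replicates are separate animals or separate wells. P-values therefore reflect how far these libraries differed within a group, and that spread may be technical; with no library date in the labels time after transplant and batch cannot be told apart.

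Library totals ran from 3910680 to 12972505 counts. CD14 and CD163, the sorted antigens, were expressed in every library, and a list of 9 CD14 monocyte and macrophage genes summed to between 12400 and 12900 CPM (counts scaled to a common library total) in Early CTL, 9480 and 10000 in Early ACT, 6460 and 7040 in Late CTL and 5960 and 6120 in Late ACT. In sum, genes of T cells reached at most 0.652 CPM, of B cells 6.58, of platelets 3.32 and of erythroid cells 1.09. HBA1 was at 0. Several listed genes had no row: CD2, CD3D and TRAC of T cells, PF4 of platelets, HBB of erythroid cells and FCGR3B of neutrophils. GNLY and PRF1 of natural killer cells and CX3CR1 and FCGR3A of CD16 monocytes had none either. A low sum over the genes left does not show that a cell type was absent. Natural killer cell genes summed to 52.8 to 56.4 CPM in Early CTL and 32.1 to 37.5 in Late ACT, and dendritic cell genes to 67.6 to 85.5 and 52.9 to 58.5. Neutrophil genes summed to 701 to 745 CPM in Early CTL and 319 to 396 in Late ACT, and those of CD16 monocytes to 311 to 320 and 127 to 146. Few genes carried the sums of the natural killer, dendritic, neutrophil and CD16 monocyte lists. In Early CTL 1, CSF3R read 606 CPM and CAMP 131 but MPO 1.92 and ELANE 0.0, and LILRB1 read 312 but CDKN1C 0.32. There NCAM1 read 55.1 CPM but NKG7 0.16, and CD1C 73.2 but CLEC9A 0.0. A sum alone does not show that such cells were present. The part of the shifts between groups in the results below was not tested, and fewer cells of a type cannot be told apart from less RNA per cell. On the second principal component replicate 1 of Early ACT lay at -61.46, far from 1.49 and 1.79 for the other libraries of that group. Main results that use this library are therefore given with and without it, and some values of single genes with all libraries only.

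Of the 66 cytosolic rows 62 had enough counts to be tested, and of the 47 mitochondrial rows 41. The untested rows were RPL10, RPS27 and both rows of RPS2 on the cytosolic side, and MRPL1, MRPL19, MRPL39, MRPL54, MRPS21 and MRPS34 on the mitochondrial side; RPS27, MRPS34 and a row of RPS2 were listed at 0 in all libraries. RPSA, RPS24, RPS27A and RPS2 are carried by 2 rows each, and near-identical copies of ribosomal protein genes can share reads, so these rows are uncertain. Rows named RPLP0, RPL11, RPS6, RPS26 or RPL41 were not found. Others without a row of their name include RPL14, RPL23, RPS18 and RPS20, and MRPL12, MRPS7, MRPS12 and MRPS16 on the mitochondrial side. None of these subunits was analysed here, and only 12 rows of the small mitochondrial subunit were found. Sums, ratios and counts below therefore cover a part of each ribosome.

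The median mean level was 58.13 CPM for a cytosolic row and 6.42 CPM for a mitochondrial row. These levels are not per transcript length, so genes are not ranked against each other by them. The highest mean was 359.9 CPM on the cytosolic side (RPL3, a core protein of the large subunit) and 189.8 CPM on the mitochondrial side (MRPL16, of the large subunit). MRPL16 alone held between 27.3% and 35.4% of the counts of all mitochondrial members in a library, so sums of that set are also given without it. Of the tested mitochondrial members 25 of 41 lay between 1 and 10 CPM, against 3 of 62 cytosolic members, and their values carry more counting error.

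Summed over all members, cytosolic transcripts came to 5635, 5648 and 6010 CPM in Early CTL, 6934, 4881 and 5105 in Early ACT, 4873, 4843 and 6044 in Late CTL, and 5295, 5387 and 5169 in Late ACT. All ranges overlapped except those of Early CTL and Late ACT, where every Early CTL library lay above every Late ACT library. Within Early ACT and within Late CTL 1 library lay far above the other 2. Means were 5764 ± 213, 5640 ± 1130, 5253 ± 685 and 5284 ± 109 CPM (SD, n = 3 each), and Early ACT without replicate 1 gave 4993 ± 158 (n = 2).

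Mitochondrial ribosomal transcripts summed to 707.2, 737.7 and 778.7 CPM in Early CTL, 581.0, 566.6 and 590.7 in Early ACT, 592.7, 606.5 and 673.3 in Late CTL, and 596.7, 571.8 and 595.9 in Late ACT. All 3 Early CTL libraries lay above all 9 others, and the remaining groups lay close together. Means were 741.2 ± 35.9, 579.4 ± 12.1, 624.2 ± 43.1 and 588.1 ± 14.2 CPM (SD, n = 3 each), with 578.6 ± 17 (n = 2) in Early ACT without replicate 1. These are shares of the library total. On library sizes scaled by TMM, which corrects for the part a few very abundant genes take, the Early CTL mean was 681 ± 39.9 and the Early ACT mean 645.3 ± 19.6, and their libraries overlapped.

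The ratio of the mitochondrial to the cytosolic sum does not depend on the scaling. It was 12.6%, 13.1% and 13.0% in Early CTL, 8.38%, 11.6% and 11.6% in Early ACT, 12.2%, 12.5% and 11.1% in Late CTL, and 11.3%, 10.6% and 11.5% in Late ACT. In early cells every stimulated library lay below every unstimulated one, with or without Early ACT 1, while the late groups overlapped. Without MRPL16 the ratio was 8.98% to 9.42% in Early CTL and 5.88% to 7.54% in Early ACT, again with no overlap. A measure that weights each member alike is the gap between the median log2(CPM + 1) of tested cytosolic and of tested mitochondrial members. That gap was 2.86, 2.76 and 2.58 in Early CTL, 3.31, 3.2 and 3.24 in Early ACT, 2.88, 2.94 and 2.93 in Late CTL, and 3.16, 3.18 and 2.95 in Late ACT. It was wider in all stimulated libraries than in all unstimulated ones of the same time, at the late time by as little as 2.94 against 2.95. No p is given for a sum or ratio over the members, because they were chosen with earlier results of these data known.

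**Figure D1:**
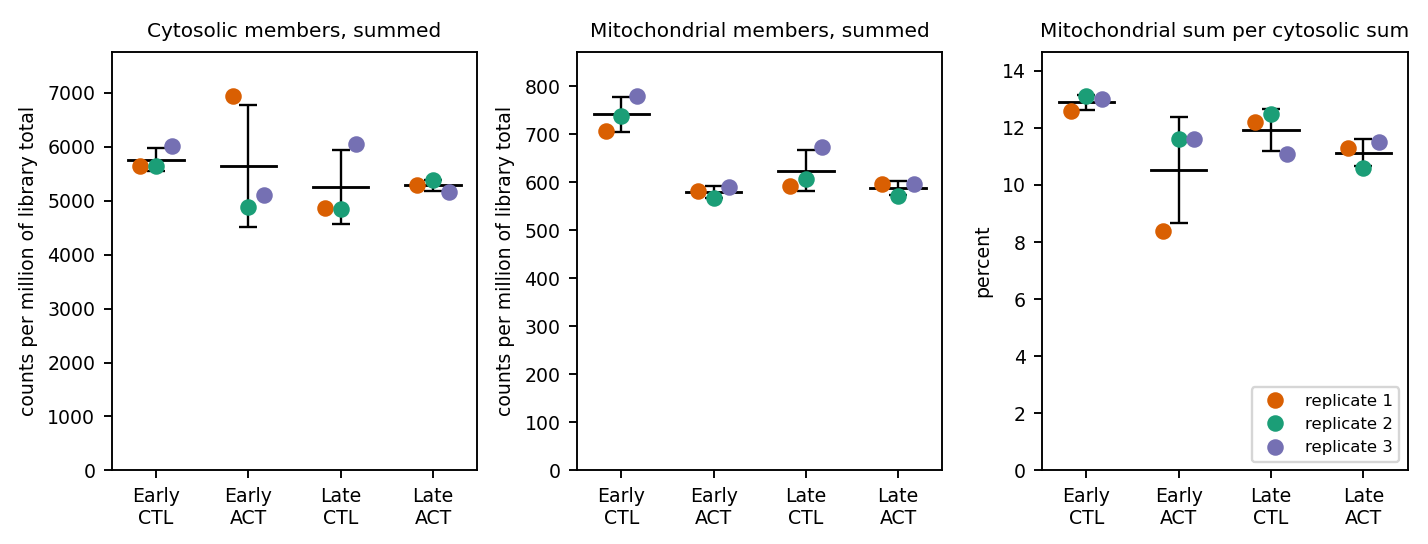
Summed CPM of cytosolic (left) and mitochondrial (middle) ribosomal protein rows, and the mitochondrial sum as a percent of the cytosolic sum (right), for the 12 libraries; points are libraries, coloured by replicate number, and lines and bars are the mean and SD of a group (n = 3). Early ACT 1 is the highest library on the left at 6934 CPM and the lowest on the right at 8.38%, and the 3 Early CTL libraries lead the middle panel at 707.2 to 778.7 CPM.

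Cytosolic members were more alike from library to library than mitochondrial members, which lie at lower levels. Over the 12 libraries the median Pearson correlation of log2 scaled levels was 0.69 between pairs of 60 cytosolic members with a mean of 5 CPM or more, and 0.19 between pairs of 26 mitochondrial members. Across the sets it was 0.18. All pairs share the same libraries and their depth, and the value is a description. Counting error lowers such correlations, and the median level over all rows was 58.13 CPM for cytosolic and 6.42 CPM for mitochondrial members. The sets were not compared at like levels. Without Early ACT 1 the cytosolic median was 0.40 and the mitochondrial one 0.22, so a large part of the cytosolic value came from that library.

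Early ACT 1 held the highest scaled level of all 12 libraries for 51 of the 62 tested cytosolic members and the highest within its group for 58. Of the 41 mitochondrial members it was the highest in its group for 20. RPL3 read 552 scaled CPM in Early ACT 1 and 352 and 368 in the other 2 libraries of the group, and RPSA, a small subunit protein also known as a laminin receptor, read 512 against 315 and 323. MRPL3 went the other way, with 2.97 against 5.68 and 5.8. Late CTL 3 was the highest of its group for 57 cytosolic members and for 23 mitochondrial ones. Single libraries set the spread of the cytosolic set in Early ACT and in Late CTL.

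**Figure D2:**
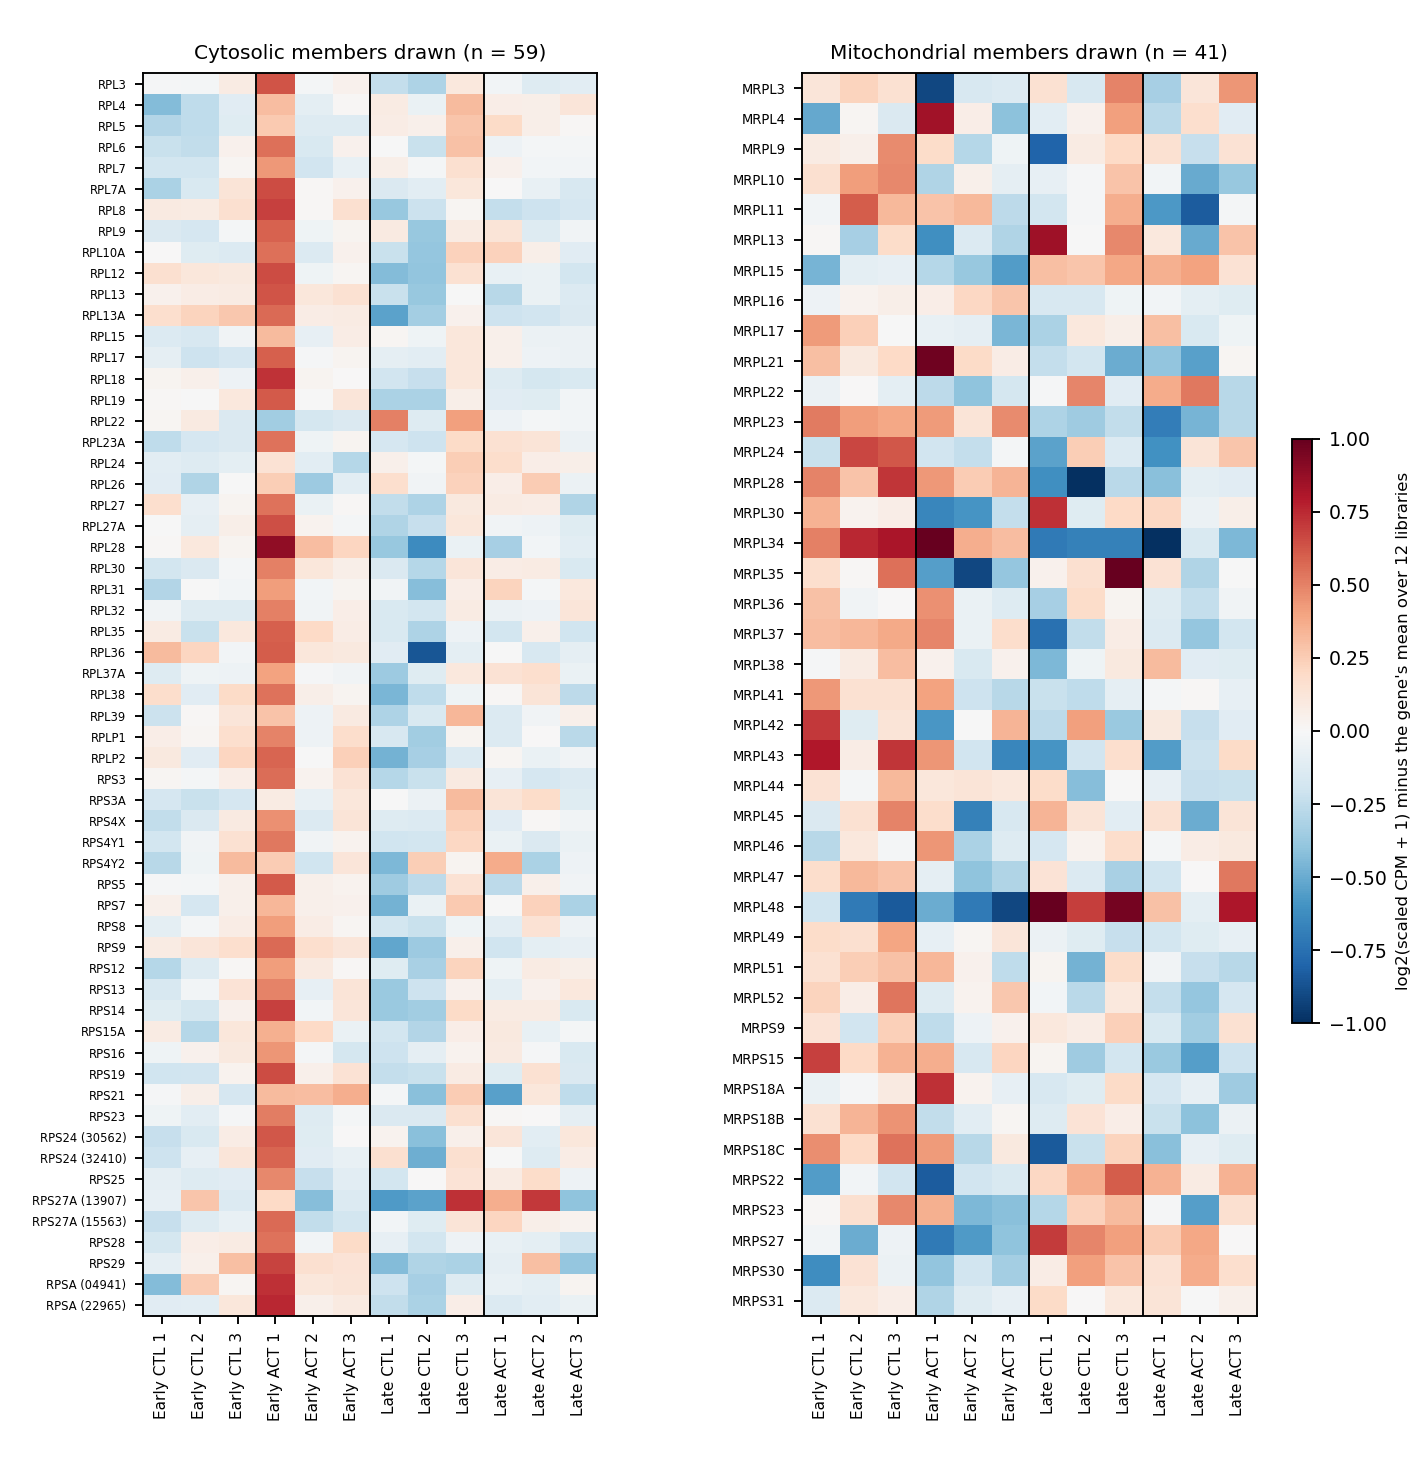
Log2(scaled CPM + 1) of tested members minus their mean over the 12 libraries, for 59 of 62 cytosolic (left) and 41 mitochondrial (right) rows; columns are libraries, grouped by time and stimulation, and the colour scale ends at -1 and 1. The Early ACT 1 column is red for nearly all cytosolic rows and mixed for mitochondrial rows, and the Late CTL 3 column is the reddest of its group on the left.

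In unstimulated cells few ribosomal protein genes differed between 19 and 4.5 months. Among cytosolic members 3 of 62 rose and 4 fell, where 20.9% of all 11826 genes tested were higher and 19.8% lower late (edgeR quasi-likelihood test, Benjamini-Hochberg adjusted p under 0.05). Among mitochondrial members 4 of 41 rose and 6 fell. The median log2 fold change was -0.03 for cytosolic and -0.24 for mitochondrial members and 0.02 for all genes. Without Late CTL 3 the cytosolic median was -0.21 with 49 of 62 members negative, and without Late CTL 2 it was -0.01. Leaving out Early CTL 1 or Early CTL 2 gave -0.10 or -0.06, leaving out Late CTL 1 gave -0.05, and the mitochondrial median was -0.16 without Early CTL 3. The share of genes called also moved with the level: 28.2% of all genes between 10 and 100 CPM and 30% of those above it were lower late, against 10.9% of those between 1 and 10 CPM. The cytosolic count followed the scaling. With library totals 1 member rose and 10 fell (17.7% and 23.4% of all genes), and with upper-quartile factors 4 rose and 0 fell (26.2% and 15.2%), while the median of all genes stood at -0.07 and 0.15. Relative to that median the cytosolic one lay at -0.05 under all 3 scalings. Scaling moves all genes of a comparison by about the same amount, so this likeness was fixed in advance and is no check. Without Late CTL 3 the cytosolic count was 11, and without Early CTL 1 or Early CTL 2 it was 4.

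RPL4 and RPL5 were among the members that rose in unstimulated cells. RPL5, which carries the 5S ribosomal RNA with RPL11 and can bind MDM2, read 197, 202 and 222 scaled CPM in Early CTL and 254, 250 and 292 in Late CTL. RPL4, a core protein of the large subunit, read 217, 246 and 271 in Early CTL and 311, 280 and 366 in Late CTL. In neither gene did the groups overlap, and the log2 fold changes were 0.36 ± 0.12 (SE) for RPL5 and 0.39 ± 0.13 for RPL4 (edgeR quasi-likelihood test, adjusted p = 0.0198 and 0.0175). The call of RPL5 was lost in 5 of 15 alternatives and that of RPL4 in 4 of 15, for both with library totals and without Early CTL 1 (adjusted p = 0.0963 and 0.126), Early CTL 2 (0.0784 and 0.0553) or Late CTL 3 (0.0963 and 0.119).

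RPL13A read 144, 150 and 155 scaled CPM in Early CTL and 88.5, 101 and 132 in Late CTL. All late libraries lay below all early ones, and the log2 fold change was -0.48 ± 0.14 (edgeR quasi-likelihood test, adjusted p = 0.0101). This call was lost with upper-quartile factors and without Late CTL 1 (adjusted p = 0.0611 and 0.059). In the authors' deposited table RPL13A spans 44872734 to 44876918 on chromosome 19 (Mmul_8.0.1). RPS9 fell by 0.37 and RPL36 by 0.53 on the log2 scale (adjusted p = 0.035 and 0.0358). The call of RPS9 was lost in 8 of 14 alternatives and that of RPL36 in 6 of 15.

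Among the members named here, the largest changes that passed in unstimulated cells were those of mitochondrial members. MRPL28, of the large subunit, read 16.9, 14.4 and 19.8 scaled CPM in Early CTL and 7.29, 5.28 and 9.52 in Late CTL. MRPL23, which lies at the exit of the large subunit's peptide tunnel, read 14.6, 13.5 and 13.2 in Early CTL and 7.79, 7.52 and 8.16 in Late CTL. Every late library lay below every early one in both genes, with log2 fold changes of -1.21 ± 0.22 and -0.81 ± 0.21 (edgeR quasi-likelihood test, adjusted p = 0.000128 and 0.00347).

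MRPL34, MRPL37, MRPL49 and MRPS15 also fell. MRPL34 dropped from 3.65, 4.55 and 4.77 scaled CPM to 1.01, 1.06 and 1.06, a log2 fold change of -2.04 ± 0.44 (adjusted p = 0.000692) on few counts. MRPL37, of the large subunit, read 28.3, 28.7 and 29.8 in Early CTL and 13.1, 18.9 and 23.9 in Late CTL (-0.61 ± 0.19, adjusted p = 0.0114), a call lost without Late CTL 1 (0.0638). MRPL49 and MRPS15 fell by 0.40 and 0.66 on the log2 scale, and neither overlapped between the groups. The call of MRPL49 was lost with upper-quartile factors and without Early CTL 3 (0.1) or Late CTL 3 (0.0608), and that of MRPS15 in 5 of 15 alternatives, among them without Early CTL 1 (0.132), Late CTL 2 (0.123) or Late CTL 3 (0.0652).

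MRPS22, a small subunit protein whose human mutations cause a mitochondrial disease, read 14.6, 21.6 and 19.1 scaled CPM in Early CTL and 25.6, 28.6 and 34 in Late CTL. Its log2 fold change was 0.68 ± 0.19 (edgeR quasi-likelihood test, adjusted p = 0.00583) with no overlap. MRPL15, of the large subunit, rose from 9.05, 12.0 and 12.1 to 16.1, 15.8 and 17.2 (0.56 ± 0.19, adjusted p = 0.0203), a call lost without Early CTL 1 (0.114) or Late CTL 3 (0.0651) and with no low-count filter. MRPL48 rose from 1.75, 0.929 and 0.767 to 6.28, 4.09 and 5.14, a change of 2.21 ± 0.44 (adjusted p = 0.000268). MRPS27, which contains pentatricopeptide repeats that bind RNA, stayed under 5 CPM and rose by 0.99 ± 0.38 (adjusted p = 0.0416), a call lost in 10 of 15 alternatives.

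In stimulated cells more cytosolic members were lower at 19 months. Of 62 members 14 fell and 1 rose, where 19.7% of all genes tested were lower late and 19.1% higher. Among mitochondrial members 5 of 41 rose and 4 fell. The median log2 fold change was -0.21 for cytosolic members, 0.02 for mitochondrial members and 0.05 for all genes. Leaving out Early ACT 2 gave a cytosolic median of -0.34, and the mitochondrial one ran from -0.12 (without Late ACT 3) to 0.09 (without Early ACT 1). The 14 make up 22.6% of the cytosolic members tested. Of all genes between 10 and 100 CPM 27.6% were lower late, and of those above 100 CPM 40.4%, so their share lies near or under the background at such levels. Without Early ACT 1 the count was 8 lower and 2 higher of 62 (18.7% and 18.3% of all genes) with a median of -0.07, and mitochondrial members gave 4 lower and 3 higher. With library totals 2 cytosolic members fell and 2 rose (14.1% and 26.4% of all genes) and with upper-quartile factors 3 fell and 1 rose (15.6% and 24.4%), with the median of all genes at 0.20 and 0.15. Relative to it the cytosolic median was -0.25 with TMM factors, -0.25 with library totals and -0.26 with upper-quartile factors, and -0.12 without Early ACT 1. The likeness between scalings was again fixed in advance and is no check. Without Early ACT 2 the cytosolic count was 23, without Late ACT 1 it was 5 and without Late ACT 3 it was 8, and without Late ACT 1 the mitochondrial count was 4. In a fit of only the compared groups 4 cytosolic members passed.

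The cytosolic members that fell included RPL8, RPL13, RPL13A, RPL18, RPL19, RPL28, RPL35 and the stalk protein RPLP1 in the large subunit, and RPS3, RPS9, RPS21 and a row of RPSA in the small subunit. RPL8 read 358, 224 and 248 scaled CPM in Early ACT and 188, 192 and 198 in Late ACT. RPL28 read 53.9, 35.7 and 33.4 in Early ACT and 22.6, 28.1 and 26.6 in Late ACT. Neither gene overlapped between the groups, and their log2 fold changes were -0.51 ± 0.14 and -0.64 ± 0.18 (edgeR quasi-likelihood test, adjusted p = 0.00554 and 0.00642). Both passed in every alternative tried, and without Early ACT 1 they were -0.31 and -0.44 (adjusted p = 0.00489 and 0.0186).

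RPL13 read 320, 224 and 230 scaled CPM in Early ACT and 171, 198 and 188 in Late ACT, a log2 fold change of -0.47 ± 0.13 (edgeR quasi-likelihood test, adjusted p = 0.00702). RPL13A read 191, 135 and 136 in Early ACT and 111, 112 and 116 in Late ACT (-0.43 ± 0.14, adjusted p = 0.019). In both genes Early ACT 1 was far the highest, yet the other 2 early libraries also lay above every late one. Leaving it out gave -0.31 for RPL13 and -0.28 for RPL13A (adjusted p = 0.00532 and 0.0304). With library totals neither passed (0.0568 and 0.118), and the call of RPL13A was lost in 4 of 15 alternatives, among them without Late ACT 1 (0.052).

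RPS3, a small subunit protein at the messenger RNA entry, read 264, 183 and 198 scaled CPM in Early ACT and 169, 159 and 162 in Late ACT, a log2 fold change of -0.39 ± 0.13 (edgeR quasi-likelihood test, adjusted p = 0.0228). It was -0.24 without Early ACT 1 (adjusted p = 0.0376), and the call was lost in 5 of 15 alternatives: library totals (0.154), only the compared groups (0.0747), upper-quartile factors (0.095) and without Late ACT 2 (0.0639) or Late ACT 3 (0.056). RPS9 gave -0.42 with Early ACT 1 and -0.29 without it (adjusted p = 0.0203 and 0.0255). For 6 of the 14 members the call was lost without Early ACT 1. Among these were RPL18 (adjusted p = 0.152), RPL19 (0.172), RPL35 (0.0859), the RPSA row (0.0846) and RPLP1, the acidic stalk protein that helps to recruit elongation factors. RPLP1 overlapped between the groups (-0.35 ± 0.14 with it, adjusted p = 0.0481; -0.22 without it, adjusted p = 0.095). RPS21 passed without Early ACT 1 (adjusted p = 0.0395) but failed in 10 of 15 alternatives.

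Mitochondrial members that fell in stimulated cells were MRPL23, MRPL28, MRPL34 and MRPS18A. MRPL23 read 13.6, 10.9 and 14.1 scaled CPM in Early ACT and 5.72, 6.89 and 7.97 in Late ACT, a log2 fold change of -0.88 ± 0.21 (edgeR quasi-likelihood test, adjusted p = 0.00171). MRPL28 read 16.1, 14.1 and 15.0 in Early ACT and 8.45, 10.8 and 10.7 in Late ACT (-0.58 ± 0.21, adjusted p = 0.033). The values without Early ACT 1 were -0.87 and -0.56 (adjusted p = 0.00171 and 0.0349). The call of MRPL28 was lost in 5 of 15 alternatives: DESeq2 (0.0588), library totals (0.108), upper-quartile factors (0.08) and without Early ACT 3 (0.0595) or Late ACT 1 (0.124). No library of one time reached the range of the other in either gene. MRPS18A read 61.1, 37.3 and 34.4 in Early ACT and 32.2, 34.4 and 28.2 in Late ACT; it fell by 0.45 on the log2 scale with Early ACT 1 (adjusted p = 0.0468) and gave -0.20 without it (adjusted p = 0.268).

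MRPL15, MRPS22, MRPS30, MRPL48 and MRPS27 rose. MRPL15 read 10.4, 9.67 and 8.44 scaled CPM in Early ACT and 16.8, 17.4 and 14.4 in Late ACT, a log2 fold change of 0.79 ± 0.19 (edgeR quasi-likelihood test, adjusted p = 0.0022). MRPS22 read 11.9, 19.2 and 19.7 in Early ACT and 28.3, 23.4 and 28.2 in Late ACT (0.62 ± 0.19, adjusted p = 0.0117). Both were higher in all late libraries than in all early ones, and without Early ACT 1 they gave 0.82 and 0.44 (adjusted p = 0.00121 and 0.033). The call of MRPS22 was lost without Late ACT 1 or Late ACT 3 (0.051 and 0.0513). MRPS27 gave 1.15 ± 0.40 (adjusted p = 0.0262), a call lost in 5 of 15 alternatives, among them without Early ACT 1 (1.05, adjusted p = 0.0665), Early ACT 2 (0.0789), Late ACT 1 (0.0635) or Late ACT 2 (0.0895). MRPS30 read 7.17, 8.4 and 7.5 in Early ACT and 10.9, 12.9 and 11.1 in Late ACT (0.59 ± 0.22, adjusted p = 0.0414), a call lost without Early ACT 1 (0.0702) and in 6 other alternatives.

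Both comparisons of late with early use separate libraries but come from the same fit, which shares its estimate of the spread. Time and batch cannot be told apart in either. How often genes at large were called in both states was not counted, so the members shared are a description without a background. On the mitochondrial side MRPL15, MRPL48, MRPS22 and MRPS27 rose in both, which is 4 of the 4 that rose in unstimulated and of the 5 in stimulated cells. MRPL23, MRPL28 and MRPL34 fell in both, 3 of 6 and 3 of 4. On the cytosolic side 3 members fell in both, RPL13A and RPS9 among them, 3 of 4 and 3 of 14, and 1 rose in both, 1 of 3 and 1 of 1. No member went in opposite directions. RPL4 and RPL5 rose in unstimulated cells only by the threshold; in stimulated cells RPL5 gave 0.08 ± 0.12 (adjusted p = 0.631), and the difference between the states did not pass for RPL4 (-0.38 ± 0.18, adjusted p = 0.443) or RPL5 (-0.28 ± 0.17, adjusted p = 0.592, edgeR quasi-likelihood test of the interaction).

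**Figure D3:**
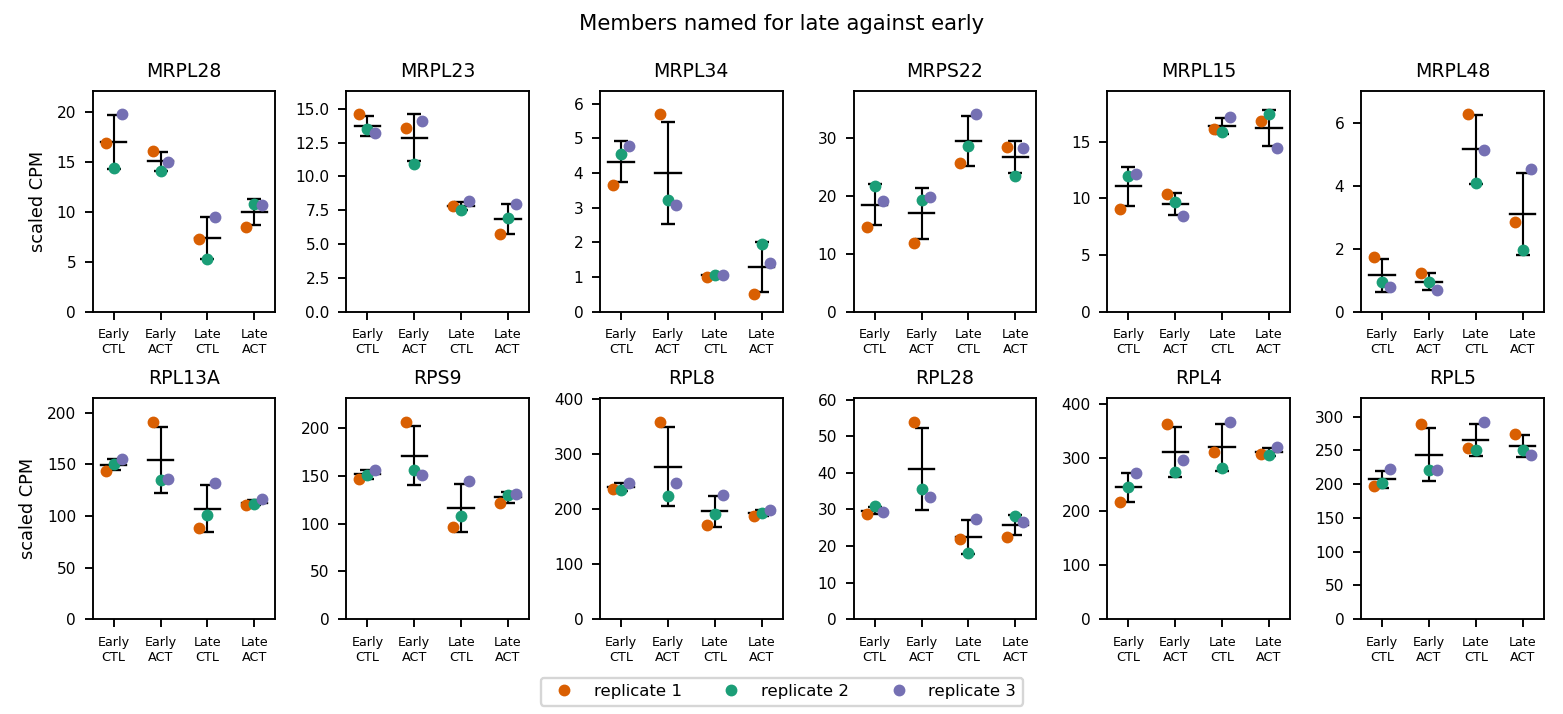
Scaled CPM of 12 named members in the 4 groups; points are libraries, coloured by replicate number, and lines and bars are the group mean and SD (n = 3). The mitochondrial members in the upper row part early from late libraries in both states, for example MRPL23 at 10.9 to 14.6 early and 5.72 to 8.16 late, and in the lower row the Early ACT 1 point stands above its group.

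At 4.5 months the fold changes of the cytosolic and mitochondrial members on stimulation had mostly opposite signs, but no member passed the test. Of 62 cytosolic members 60 had a positive log2 fold change with a median of 0.23, and of 41 mitochondrial members 36 had a negative one with a median of -0.25. The median of all genes was -0.00. Calls were 0 of 62 and 0 of 41, against 4.57% of all genes higher and 2.66% lower (edgeR quasi-likelihood test). At an unadjusted p under 0.05 there were 9 cytosolic members higher and 0 lower, and 0 mitochondrial members higher and 7 lower. Members share libraries and move together, so these counts of signs are a description.

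The cytosolic shift was smaller without Early ACT 1: 43 of 62 cytosolic members were positive and the median was 0.05. With library totals in place of TMM factors 17 of 62 were positive and the median was -0.05, while the median of all genes moved to -0.28. Relative to the median of all genes the cytosolic one was 0.23 under either scaling and 0.06 without Early ACT 1. The mitochondrial direction did not turn: without Early ACT 1 38 of 41 members were negative (median -0.30), and with library totals 40 of 41 were (median -0.52). Relative to all genes the mitochondrial median was -0.25 under either scaling and -0.29 without Early ACT 1. For both ribosomes the likeness of these relative values between scalings was fixed in advance and is no check. With library totals 10 mitochondrial members fell, where 18.0% of all genes were called lower. The early response also moved with the level. With TMM factors and all libraries, the median of all genes above 100 CPM was 0.12, with 14.9% called higher and 2.1% lower. It was -0.03 for genes between 10 and 100 CPM and -0.06 for those between 1 and 10 CPM. The part of level in the difference between the ribosomes was not tested.

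Stimulated early libraries lay entirely above unstimulated ones for 13 cytosolic members and 1 mitochondrial member and entirely below for 0 and 9, where 12.7% of all genes lay above and 13.0% below. Without Early ACT 1 the mitochondrial count below was 19 of 41 (46.3%), where 22.3% of all genes lay below and 22.6% above, and the cytosolic counts were 13 above and 2 below. In that fit 1 mitochondrial member fell, MRPL43 (-1.19, adjusted p = 0.0201, edgeR quasi-likelihood test), where 4.74% of all genes were lower and 7.62% higher.

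**Figure D4:**
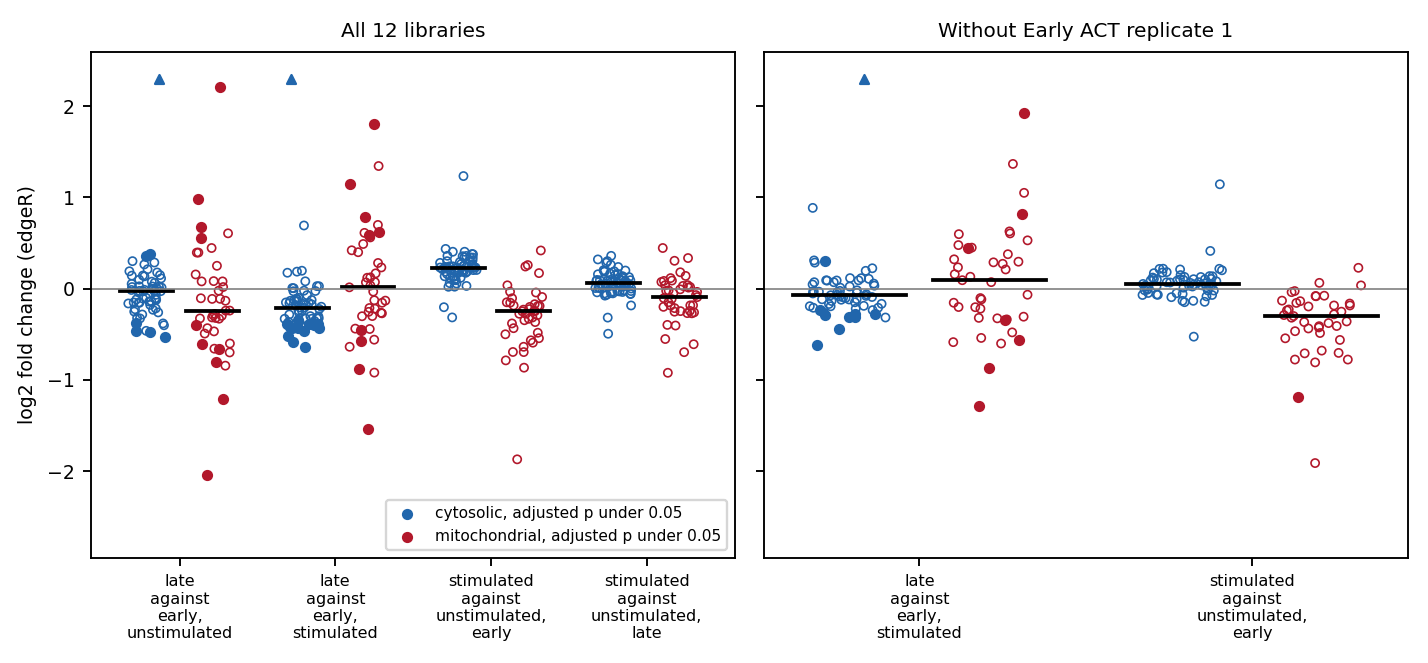
Log2 fold changes of tested members, cytosolic in blue and mitochondrial in red, with all 12 libraries (left) and without Early ACT replicate 1 (right); filled points have an adjusted p under 0.05, black lines are medians, and triangles are values beyond the axis limit. In early stimulation the blue cloud sits at a median of 0.23 with all libraries and 0.05 without that library, and the red one at -0.25 and -0.30.

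Values of individual members in early stimulation are given as examples, and none passed with TMM factors and all 12 libraries. The mitochondrial set had a median of -0.25 and a lower quartile of -0.48, so the first 2 examples fell by more than the median. MRPL10, of the stalk base of the large subunit, read 17.1, 20.6 and 21.6 scaled CPM in Early CTL and 12.1, 15.7 and 14.2 in Early ACT. MRPS18B, of the small subunit, read 28, 32.1 and 34.7 in Early CTL and 21.0, 23.3 and 25.5 in Early ACT. Stimulated libraries lay below unstimulated ones in both, with log2 fold changes of -0.48 ± 0.19 and -0.43 ± 0.16 that did not pass (edgeR quasi-likelihood test, adjusted p = 0.128 and 0.0979); MRPS18B was chosen after its values were seen.

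MRPL35 had the smallest adjusted p of the set, at 0.0732, with 1.46, 1.21 and 2.22 scaled CPM in Early CTL and 0.495, 0.17 and 0.682 in Early ACT. It rests on few counts and was likewise named for its value. MRPL16 differed in sign from most of the set, with 183, 194 and 197 in Early CTL and 198, 218 and 230 in Early ACT (0.17 ± 0.11, adjusted p = 0.38). On the cytosolic side RPL4 gave 0.34 ± 0.13 and RPS19, a small subunit protein mutated in Diamond-Blackfan anaemia, 0.41 ± 0.15, each with an adjusted p of 0.11, and without Early ACT 1 they gave 0.22 and 0.21. RPL22 was among the 2 cytosolic rows with a negative value (-0.20 ± 0.18, adjusted p = 0.559).

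The large and the small subunit of each ribosome had like medians in early stimulation. Of the cytosolic members 33 of 34 in the large and 27 of 28 in the small subunit were positive, with medians of 0.23 each. Of the mitochondrial members 4 of 31 in the large and 1 of 10 in the small subunit were positive, with medians of -0.25 each. Leaving out Early ACT 1, the median over both subunits was 0.05 for cytosolic and -0.30 for mitochondrial members. The subunits were not split in that fit. In unstimulated cells at 19 against 4.5 months the large mitochondrial subunit had a median of -0.30 with 5 members lower and 2 higher, and the small one 0.03 with 1 lower and 2 higher. The difference between subunits was not tested.

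At 19 months no member and no other gene of the 11826 passed the test of stimulation (0.0% higher, 0.0% lower, edgeR quasi-likelihood test). At an unadjusted p under 0.05 there were 266 genes higher and 261 lower, none of them a member, and DESeq2 called 8 higher and 7 lower of 8691 genes with an adjusted p, again with 0 members. The cytosolic median was 0.06 with 45 of 62 members positive, and the mitochondrial median -0.09 with 27 of 41 negative. Single libraries moved both: the cytosolic median was 0.18 with 58 of 62 positive without Late CTL 3, 0.01 without Late CTL 1 and -0.01 with 29 of 62 positive without Late CTL 2. The mitochondrial one was -0.06 without Late CTL 3 and -0.16 without Late ACT 3. All 10 tested members of the small mitochondrial subunit were negative, with a median of -0.20. In the large mitochondrial subunit 14 of 31 were positive, with a median of -0.02. The difference between subunits was not tested. MRPL10 was again lower in stimulated cells, at 14.9, 10.4 and 11.4 scaled CPM in Late ACT against 14.3, 15.0 and 18.7 in Late CTL, but these libraries overlapped.

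Whether stimulation acted differently at the 2 times was tested as an interaction, late minus early. No member passed, against 0.186% of all genes higher and 1.23% lower (edgeR quasi-likelihood test). The medians were -0.17 for cytosolic members, with 52 of 62 negative, and 0.16 for mitochondrial members, with 27 of 41 positive. The cytosolic median was 0.03 without Early ACT 1, and without Late CTL 3 it was -0.03 with 39 of 62 negative, while without Early ACT 2 or Early ACT 3 it was -0.27 or -0.26. The mitochondrial median was 0.20 without Early ACT 1. With library totals the medians were 0.08 and 0.40, but that of all genes was 0.23. Relative to all genes they were -0.15 and 0.17, against -0.16 and 0.17 with TMM factors, a likeness between scalings that was fixed in advance. The interaction moved with the level too. For all genes above 100 CPM its median was -0.12, with 0.1% called higher and 5.2% lower. For genes between 10 and 100 CPM it was 0.02, and for those between 1 and 10 CPM 0.06. The part of level in the medians of the ribosomes was not tested. At an unadjusted p under 0.05 there was 1 member in each set. These were RPL4 (-0.38 ± 0.18, adjusted p = 0.443) and MRPL47 (1.03 ± 0.44, adjusted p = 0.365, edgeR quasi-likelihood test), the latter chosen after its value was seen.

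Several subunits with known roles passed in no comparison with all 12 libraries. RPS27A is made as a fusion with ubiquitin; for late against early its more abundant row gave 0.15 ± 0.16 without stimulation and 0.03 ± 0.16 with it (adjusted p = 0.476 and 0.91, edgeR quasi-likelihood test). That row passed in stimulated cells when Early ACT 1 was left out, at 0.30 (adjusted p = 0.01). RPS4X gave 0.10 ± 0.15 and -0.20 ± 0.15 (adjusted p = 0.627 and 0.301), the second being -0.06 without Early ACT 1. RPLP2, partner of RPLP1 in the stalk, gave -0.38 ± 0.16 and -0.30 ± 0.15 (adjusted p = 0.0567 and 0.127). It passed in 5 of 15 alternatives for unstimulated cells, among them without Early CTL 2 (0.0388) or Late CTL 3 (0.0335), and in stimulated cells without Early ACT 2 (0.0361), while without Early ACT 1 it gave -0.17. RPL22 gave 0.30 ± 0.18 and 0.19 ± 0.18 (adjusted p = 0.186 and 0.431); it passed in unstimulated cells without Late CTL 2 (0.0462) and gave 0.12 in stimulated cells without Early ACT 1.

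The mitochondrial subunits MRPL3, MRPL11, MRPL41, MRPL44 and MRPL52 did not pass either with all libraries. MRPL44, mutated in an infantile heart disease, gave -0.24 ± 0.17 in unstimulated and -0.30 ± 0.17 in stimulated cells late against early (adjusted p = 0.272 and 0.158, edgeR quasi-likelihood test). MRPL11, near the factor binding site, gave -0.28 ± 0.29 and -0.64 ± 0.30 (adjusted p = 0.473 and 0.0961), and passed in stimulated cells without Early ACT 3 (0.0377) or Late ACT 3 (0.0266). MRPL3 gave 0.02 ± 0.28 and 0.49 ± 0.28 (adjusted p = 0.966 and 0.175), the second being 0.30 without Early ACT 1. MRPL16 gave -0.26 ± 0.11 in stimulated late cells (adjusted p = 0.0574) and passed without Early ACT 1 (-0.34, adjusted p = 0.00119) and with DESeq2 (0.0224).

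Genes that build or use the ribosomes were followed in lists of known members. FAU and RACK1, cytosolic subunits with other names, were both tested and both fell in stimulated late cells, by 0.35 and 0.43 on the log2 scale (adjusted p = 0.0357 and 0.0217), and neither passed in unstimulated cells. RACK1 read 491, 338 and 326 CPM in Early ACT and 303, 321 and 329 in Late ACT, and without Early ACT 1 it gave -0.22 and FAU -0.25 (adjusted p = 0.0601 and 0.0434). Neither passed with library totals or with upper-quartile factors. A list of genes known for the same pyrimidine-tract start held translation factors and also genes of other kinds, such as VIM, HNRNPA1, NAP1L1 and NPM1. Of its 21 tested genes, 2 rose and 6 fell in stimulated cells late against early (median -0.10). In unstimulated cells 4 rose and 1 fell (median 0.06). In stimulated cells these are 9.52% and 28.6% of the list, where 19.1% of all genes rose and 19.7% fell, and without Early ACT 1 the counts were again 2 and 6. In unstimulated cells they are 19.0% and 4.76%, where 20.9% of all genes rose and 19.8% fell. The counts moved with the scaling: with library totals 5 rose and 3 fell in stimulated and 2 rose and 3 fell in unstimulated cells, and with upper-quartile factors 5 and 5 and 8 and 0. EEF2, the elongation factor that moves the ribosome along, fell in both (-0.38 ± 0.13 unstimulated and -0.49 ± 0.13 stimulated, adjusted p = 0.0233 and 0.00478, edgeR quasi-likelihood test). Its change in stimulated cells was -0.32 without Early ACT 1 (adjusted p = 0.00217). On early stimulation 17 of the 21 were positive and 1 passed, with a median of 0.16. Leaving out Early ACT 1, 16 were positive and 2 passed, with a median of 0.09, and with library totals 3 were positive (median -0.12).

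Ribosome biogenesis factors, which make ribosomal RNA and assemble subunits in the nucleolus, were called higher late more often than lower. Of 53 tested 28 rose and 2 fell late against early in unstimulated cells and 24 rose and 3 fell in stimulated cells, with medians of 0.55 and 0.43 against -0.03 and -0.21 for the cytosolic subunits. The risers were 52.8% and 45.3% of the list, where 20.9% and 19.1% of all genes rose, and without Early ACT 1 26 rose and 3 fell in stimulated cells. NOLC1, a nucleolar chaperone, read 31.2, 30.9 and 40.0 CPM in Early CTL and 75.2, 65.2 and 79.1 in Late CTL, a log2 fold change of 1.19 ± 0.15 (adjusted p = 7.8e-07). UTP20, RIOK2 and GNL3 rose by 1.27, 1.33 and 1.01, while BOP1 and RRP12 fell (-0.58 and -0.37, edgeR quasi-likelihood test). The difference between this list and the subunits was not tested.

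Mitochondrial translation and ribosome assembly factors gave 5 higher and 1 lower of 29 in unstimulated and 8 higher and 1 lower in stimulated late cells. Those higher were 17.2% and 27.6% of the list, where 20.9% and 19.1% of all genes rose. The 1 lower of 29 in each state stands against 19.8% and 19.7% of all genes lower. Without Early ACT 1 the stimulated counts were 7 higher and 0 lower. LRPPRC, which stabilises mitochondrial messenger RNA, read 36.2, 47.0 and 42.3 CPM in Early CTL and 78.8, 72.4 and 64.6 in Late CTL (0.87 ± 0.14, adjusted p = 2.74e-05). FASTKD2 and the elongation factor GFM1 rose in both states, and TUFM, the mitochondrial elongation factor Tu, fell in both (-0.44 ± 0.16 and -0.41 ± 0.16, adjusted p = 0.03 and 0.0428, edgeR quasi-likelihood test), the second call being lost without Early ACT 1 (-0.31, adjusted p = 0.0732). Of the transcripts that the mitochondrial ribosome translates only 8 had a row, MT-CO1 and MT-ND1 being among those without one. All 8 were tested and rose in unstimulated late cells. In stimulated late cells 5 of 8 rose (6 of 8 without Early ACT 1, and 8 of 8 with library totals). The tested mitochondrial subunits had 4 higher and 6 lower and 5 higher and 4 lower in the same comparisons. The difference between these transcripts and the subunits was not tested.

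The authors' deposited tables, which list genes differing between late and early cells, hold 7 cytosolic members (3 higher, 4 lower) and 7 mitochondrial members (2 higher, 5 lower) among 5229 genes for unstimulated cells. For stimulated cells they hold 7 cytosolic (1 higher, 6 lower) and 5 mitochondrial members (3 higher, 2 lower) among 3985 genes. In the authors' deposited table MRPL28 has a log2 fold change of -1.20 ± 0.29 in unstimulated cells and MRPL23 one of -0.89 ± 0.29 in stimulated cells. RPL8 stands in the authors' deposited table for both states, with -0.27 ± 0.10 and -0.51 ± 0.17, while here it passed in stimulated cells only (edgeR quasi-likelihood test). A gene that the authors' deposited table describes as ribosomal protein S2, outside the naming rule, is listed there at -0.35 and -0.50.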

How the data were processed

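The authors' count table was deposited as raw whole-number counts per gene and library, with Ensembl identifiers or symbols as row names. Per the labels, cDNA was made by SMART-Seq v4 and libraries by Nextera XT, neither of which marks strand. Per the submitters' processing notes the build is Mmul_8.0.1 and bcl2fastq was used; aligner and counter: not given in the sources used here. The authors' deposited tables of late against early hold a log2 fold change, its standard error as a score, a mean normalized count as signal and p-values, and list only genes with an adjusted p under 0.05.

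Symbols came from row names (9 member rows), a name table (102) and the authors' tables (RPS9, MRPL48). The quasi-likelihood F test of edgeR 4.0.16 (R 4.3.3, robust dispersions) was fitted to the counts of all 12 libraries, with a coefficient per group, TMM factors (0.8786 to 1.0974) and the filterByExpr filter, which left 11826 genes. Benjamini-Hochberg adjustment covered all of these. Dividing the size of a log2 fold change by the square root of F gave its SE. Scaled CPM use the TMM-scaled library size, and summed CPM use library totals. The pipeline was tested on simulated data. Alternatives were other scalings, no filter, DESeq2 1.42.0, only the compared groups, a replicate block, summed rows of a symbol, names without the authors' tables, and leaving out each library. Their use on the other gene lists was added after seeing the data.

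Members and lists were chosen with earlier results of these data known. Named are up to 4 members per direction, comparison and ribosome with the smallest p past the threshold, a symbol of 1 row and a mean of 5 CPM or more, fixed members with known roles, and others where marked or counted. Single values of 3 cytosolic members are not reported here; counts, sums and medians include them.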

Additional observations from a re-analysis of the deposited data

How the results depend on the processing

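No called value changed sign. Leaving out 1 library at a time, the count of cytosolic members that passed late against early ran from 4 to 11 in unstimulated cells (7 with all libraries) and from 5 to 23 in stimulated cells (15). The mitochondrial count in stimulated cells ran from 4 to 9 (9), and that of early stimulation from 0 to 1 (0). With library totals alone the cytosolic counts were 11 and 4, and 10 mitochondrial members passed in early stimulation. With only the compared groups they were 11 and 4, and with upper-quartile factors 4 and 4. Without the low-count filter 1 mitochondrial member passed in early stimulation. The cause was not tested.

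Same-numbered replicates did not deviate together from their group means (correlations from -0.086 to 0.097), and the main fit used no pairing. With 3 libraries per group such correlations cannot exclude a pairing by animal, well or handling. A replicate block gave 7 cytosolic and 9 mitochondrial calls in unstimulated and 12 and 8 in stimulated cells.

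The log2 ratio of summed CPM moved with the scaling. On TMM-scaled CPM it was -0.159 for mitochondrial members late against early in unstimulated cells (-0.249 on library totals) and -0.133 in stimulated cells (0.021), 0.229 for cytosolic and -0.076 for mitochondrial members on early stimulation (-0.049 and -0.354), and -0.18 and 0.026 in the interaction (0.065 and 0.27). As a median of log2(CPM + 1) the mitochondrial values were 0.125, -0.55 and 0.419 for stimulated late against early, early stimulation and the interaction. Without MRPL16, an alternative added after seeing the data, they were 0.085, -0.465 and 0.343. Counting depth limits mitochondrial members most, 25 of 41 of which lie between 1 and 10 CPM.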
